A study of Homo sapiens with 2 samples.

Results

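Transcript levels of 10 circadian clock genes were examined in U87, a human line established from a glioblastoma, which was kept for 72 h with CCA-1.1 or with its vehicle DMSO. The members were taken by name, with earlier results of these data known. They were PER1, PER2, PER3, CRY1, CRY2, CLOCK, NR1D1, NR1D2, DBP and TEF, which are 10 of the 41582 gene symbols of the table. CCA-1.1 is a curcumin analog, and both cultures were wild type by their label and grew in RPMI medium with fetal bovine serum. There was 1 library per treatment, so no difference here has a replicate check, no test was possible and no p-value is given. The dose of CCA-1.1 in the sequenced culture, the clock time of harvest and any synchronisation of the cells are not given in the sources used here. Since each treatment was sampled at 1 time point, a shift in the phase of the clock and a change in its level cannot be told apart. Nor can fewer cells that express a gene and less RNA of it per cell, since the libraries are bulk.

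The circadian clock is a feedback loop of transcription that runs in most cells of the body. CLOCK pairs with BMAL1, and the pair binds E-box sequences and switches on the PER and CRY genes, whose proteins return to the nucleus and repress CLOCK and BMAL1. In a further loop, the nuclear receptors REV-ERBα (NR1D1) and REV-ERBβ (NR1D2) repress BMAL1 at elements that the ROR receptors activate, while DBP and TEF, transcription factors of the PAR bZIP family, drive output genes through D-box sequences. Cultured cells that have not been synchronised drift out of phase with each other, so that a bulk library averages over many phases.

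All 10 members were detected in both libraries, and none of them differed by 2-fold when all transcripts of a gene were counted. With curated transcripts alone, PER2 was past 2-fold, at -1.04. The deposited unit is TPM, in which read numbers are scaled to transcript length and to the whole library, and each gene's transcripts were summed. Each difference is log2(TPM + 1) under CCA-1.1 minus the same under DMSO, and low genes therefore appear less changed than they are. On this scale 5 members were higher and 5 were lower in the CCA-1.1 library. PER3 and CRY1, of the higher ones, were lower with curated transcripts alone, at -0.51 and -0.05. The median difference of the 10 members was -0.0097, and they ranged from -0.30 for CRY2 to 0.32 for PER3. For comparison, 12041 protein-coding genes had a mean over both libraries of 1 TPM or more. Of these genes, 53.8% were higher and 46.0% were lower. Their median difference was 0.017 and the 5th and 95th percentiles were -0.31 and 0.36. Past 2-fold, 0.149% of these genes were higher and 0.191% were lower, so 0 of 10 members is near the background. Past a smaller limit, a difference of 0.32 in either direction (rounded from 0.3219), 6.84% of the genes were higher and 4.53% were lower, against 0 of the 10 members in either direction. PER3, at 0.3203, lay just inside this limit and passed it, at 1.27-fold, when TPM were divided without a pseudocount. With curated transcripts alone, 2 members were past it, PER2 at -1.04 and PER3 at -0.51. The shares of all genes given here count all transcripts with the pseudocount, and were not computed for these other settings. Summed over the 10 members, the level was 328.8 TPM under DMSO and 318.2 TPM under CCA-1.1.

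**Figure D1:**
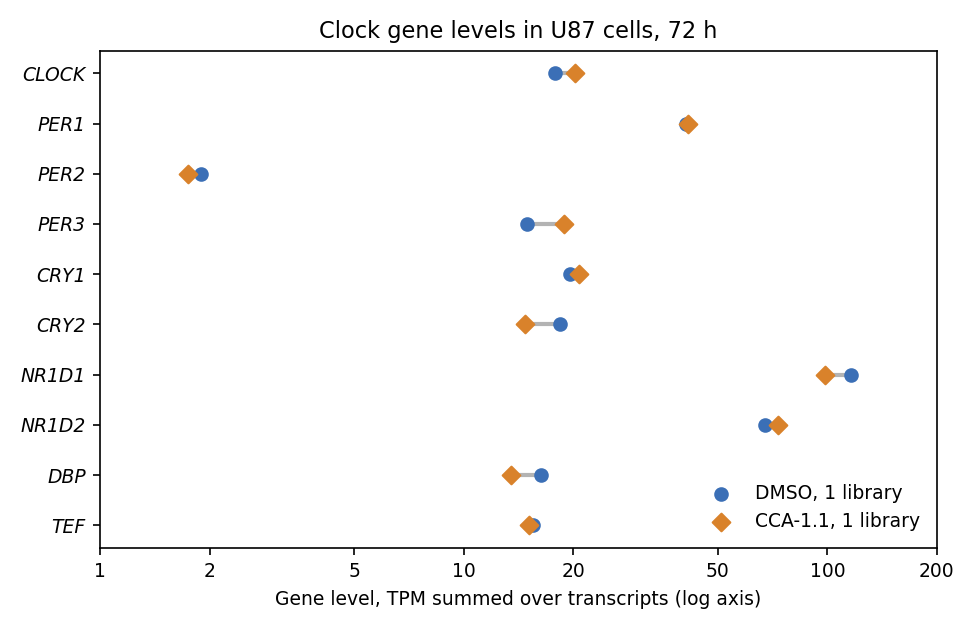
Level of each clock gene in TPM, summed over its transcripts, on a log axis; circles are the DMSO library and diamonds the CCA-1.1 library, 1 library each, so there are no error bars. NR1D1, NR1D2 and PER1 were the 3 highest genes in both libraries and PER2, below 2 TPM, was the lowest.

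The order of the members by level, which TPM allows since it is per length, was much the same in both libraries. NR1D1 was highest, followed by NR1D2, PER1 and CRY1, and PER2 was lowest. The other 5 members, CRY2, CLOCK, DBP, TEF and PER3, lay between 14.9 and 18.4 TPM under DMSO and between 13.5 and 20.2 TPM under CCA-1.1. Within that range the order differed between the libraries, with PER3 moving from the 9th to the 6th place and CRY2 from the 5th to the 8th. Without replicates, the spread that would show which neighbours in this order differ is unknown.

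The loops act through short DNA elements, and the promoter stretches of the members that hold the letters of such elements are shown here, since the E-box and the D-box are the elements by which clock genes act on each other. RefSeq promoters of GRCh38.p14, from 250 bases before to 50 bases after each annotated start, were found for all 10 members, 15 promoters in all. The searched letters were CACGTG for the E-box, CACGTT for a variant E-box, TTATGTAA or TTATGCAA for the D-box, AGGTCA for the half-site of ROR and REV-ERB, and TGACGTCA for the cAMP response element, each on both strands. Capitals mark an E-box, a variant E-box or a D-box, on either strand, and each stretch is written 5′ to 3′ on the strand of its gene.
PER1 E-box (chr17:8152560-8152589, minus strand): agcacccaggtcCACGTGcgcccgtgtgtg
PER1 D-box (chr17:8152415-8152446, minus strand): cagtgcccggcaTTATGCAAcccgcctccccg
PER2 variant E-box (chr2:238288790-238288819, minus strand): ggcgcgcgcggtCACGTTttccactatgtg
PER3 D-box (chr1:7784102-7784133, plus strand): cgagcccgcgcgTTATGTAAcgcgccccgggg
NR1D2 D-box and E-box (chr3:23945915-23945983, plus strand): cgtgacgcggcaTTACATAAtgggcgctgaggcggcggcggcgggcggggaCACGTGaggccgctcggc
NR1D2 further E-box (chr3:23946004-23946033, plus strand): gggccgcagggaCACGTGggggcgggggcg
TEF E-box, upstream promoter (chr22:41367248-41367277, plus strand): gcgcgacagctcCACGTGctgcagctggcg
TEF E-box, downstream promoter (chr22:41381737-41381766, plus strand): cacctggccccgCACGTGtctatcttatcc
NR1D1 variant E-box (chr17:40100740-40100769, minus strand): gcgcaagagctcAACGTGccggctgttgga
CLOCK variant E-box (chr4:55546102-55546131, minus strand): tcaccactcgggCACGTTtggagcagcgcc
CRY1 variant E-box (chr12:107093621-107093650, minus strand): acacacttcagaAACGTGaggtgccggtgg
CRY2 variant E-box (chr11:45847275-45847304, plus strand): acacatggtaggAACGTGagggggcgggcc

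An E-box was found in 4 of the 15 promoters, those of PER1, TEF and NR1D2, and in 7.26% of all 35116 RefSeq promoters of the same length. The variant E-box was found in 5 of the 15, in CLOCK, CRY1, CRY2, NR1D1 and PER2, against 5.34% of all promoters. A D-box was found in 3 of the 15, in PER1, PER3 and NR1D2, against 1.71%. The ROR and REV-ERB half-site was found in 3, those of PER1 and CRY2, against 13.8%, and the cAMP response element in 0, against 1.85%. No searched element was found in the DBP window, which says only that these letters are not within it. The members with a D-box had differences of 0.02 (PER1), 0.12 (NR1D2) and 0.32 (PER3), the last of which was -0.51 with curated transcripts alone. The members with an E-box had differences of 0.02 (PER1), 0.12 (NR1D2) and -0.04 (TEF), and those with a variant E-box ran from -0.30 (CRY2) to 0.17 (CLOCK). With curated transcripts alone the latter ran from -1.04 (PER2) to 0.02 (CLOCK). Of all protein-coding genes compared, 53.8% were higher, and whether a match goes with a difference was not tested. The matches did not overlap each other. A match is a description of the letters, and no binding was measured.

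CLOCK (Entrez 9575, chromosome 4 from 55427903 to 55546909 of GRCh38.p14) encodes the activating partner of BMAL1. It was at 17.8 TPM under DMSO and 20.2 TPM under CCA-1.1, a difference of 0.17, and 34.4% of the protein-coding genes compared were at least as far from 0 in either direction. BMAL1, the partner without which the loop does not run, was at 13.1 TPM under DMSO and 15.5 TPM under CCA-1.1, a difference of 0.22. Both genes of the activating pair were thus higher in the CCA-1.1 library, each by less than the 0.32 limit, and the difference of CLOCK was 0.02 with curated transcripts alone. NPAS2, a paralog of CLOCK that can take its place, was at 60.0 TPM and 58.3 TPM, a difference of -0.04. It was the most abundant of these genes, and CLOCK stood at 0.30 of the NPAS2 level in DMSO and 0.35 in CCA-1.1. BMAL2, the paralog of BMAL1, was at 25.02 TPM and 20.8 TPM, a difference of -0.26.

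The PER genes encode the period proteins, which carry CRY proteins into the nucleus. PER1 (Entrez 5187, chromosome 17 from 8140472 to 8152404) was at 40.8 TPM under DMSO and 41.4 TPM under CCA-1.1, a difference of 0.02, and 89.5% of the genes compared were at least as far from 0. PER2 (Entrez 8864, chromosome 2 from 238244044 to 238300065) was at 1.89 TPM under DMSO and 1.74 TPM under CCA-1.1, a difference of -0.08, which became -1.04 with curated transcripts alone. Its level was above that of 6.27% of the genes compared. PER3 (Entrez 8863, chromosome 1 from 7784291 to 7845177) was at 14.9 TPM under DMSO and 18.8 TPM under CCA-1.1. Its difference of 0.32, the largest of the 10 members, turned to -0.51 when curated transcripts alone were counted, and 11.5% of the genes compared were at least as far from 0. PER3 was lower than PER1 in both libraries, and the ratio of PER1 to PER3 was 2.74 under DMSO and 2.1996 under CCA-1.1.

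The CRY genes encode the cryptochromes, the main repressors of CLOCK and BMAL1. CRY1 (Entrez 1407, chromosome 12 from 106991364 to 107093549) was at 19.6 TPM under DMSO and 20.8 TPM under CCA-1.1, a difference of 0.08, which turned to -0.05 with curated transcripts alone. CRY2 (Entrez 1408, chromosome 11 from 45847118 to 45883244) was at 18.4 TPM under DMSO and 14.8 TPM under CCA-1.1, a difference of -0.30, and 13.5% of the genes compared were at least as far from 0. The paralogs were at similar levels in the DMSO library, where CRY1 was at 1.06 times the level of CRY2, and stood further apart in the CCA-1.1 library, at 1.41 times.

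The REV-ERB genes were the most abundant members. NR1D1 (Entrez 9572, chromosome 17 from 40092793 to 40100589) was at 116.2 TPM under DMSO and 98.7 TPM under CCA-1.1, a difference of -0.23, and 21.98% of the genes compared were at least as far from 0. NR1D2 (Entrez 9975, chromosome 3 from 23945286 to 23980617) was at 67.5 TPM and 73.2 TPM, a difference of 0.12. NR1D1 was at 1.72 times the level of NR1D2 in DMSO and at 1.35 times in CCA-1.1, while their sum was 183.7 TPM and 171.9 TPM. Of the ROR genes, whose proteins activate at the same elements, RORA was at 24.2 TPM under DMSO and 27.5 TPM under CCA-1.1, a difference of 0.18, and RORB was below 1 TPM in both libraries.

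DBP and TEF carry the rhythm to output genes. DBP (Entrez 1628, chromosome 19 from 48630030 to 48637379) was at 16.3 TPM under DMSO and 13.5 TPM under CCA-1.1, a difference of -0.26, and 18.9% of the genes compared were at least as far from 0. TEF (Entrez 7008, chromosome 22 from 41367455 to 41399326) was at 15.5 TPM and 15.1 TPM, a difference of -0.04. DBP was slightly above TEF in the DMSO library and below it in the CCA-1.1 library, with ratios of 1.05 and 0.89. HLF, the third gene of the family, was at 0.17 TPM and 0.09 TPM, near the smallest value above 0 of the table, 0.01 TPM. NFIL3, which binds the same D-box as a repressor, was at 72.8 TPM and 67.2 TPM, a difference of -0.11, and was thus several times more abundant than DBP or TEF in both libraries.

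**Figure D2:**
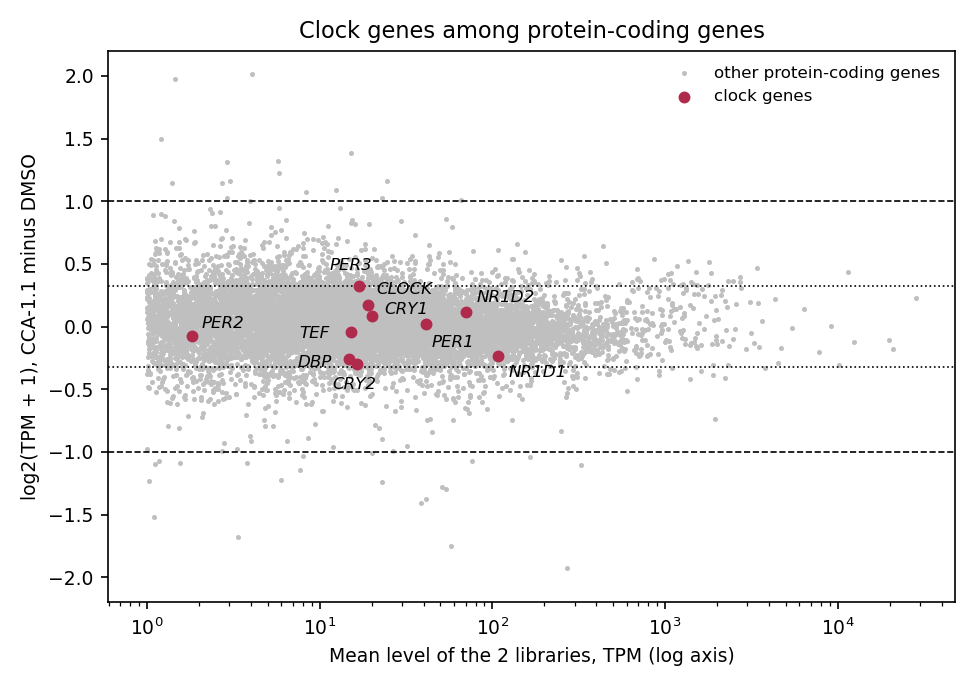
Difference of each protein-coding gene, CCA-1.1 minus DMSO in log2(TPM + 1), against its mean level in TPM on a log axis, with the 10 clock genes in red; dashed lines mark 2-fold, dotted lines a difference of 0.32 in either direction, and 3 genes lie beyond the axis. All clock genes lie between the dotted lines, with PER3 and CRY2 closest to them.

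The gene totals of PER1, NR1D1 and DBP each rest on 1 transcript of the table, and that of CRY2 on NM_021117.5, its other transcript being at 0 in both libraries. For the other 6 members the reads were divided by estimation among 2 to 37 transcripts. Between the libraries, the part of a gene's TPM that moved from some transcripts to others ran from 6.11 percentage points for TEF to 76.4 for PER2. Of the 72 transcripts of the members, 22 were at 0 in both libraries and 23 had a mean of at least 1 TPM. Of these 23, 2 were higher and 1 was lower by more than 2-fold, against 3.61% and 3.35% of the 33433 transcripts with that mean.

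PER2 had the largest such shift. NM_022817.3, its curated transcript, was at 1.89 TPM under DMSO and 0.41 TPM under CCA-1.1, a difference of -1.04. The predicted transcript XM_006712824.5 was listed at 0 under DMSO and stood at 1.33 TPM in CCA-1.1, where it held 76.4% of the TPM of the gene. The other 3 PER2 transcripts were at 0 in both libraries. PER2 as a whole was near 2 TPM, so these shares rest on a low level whose read count is not known.

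PER3 was spread over 37 transcripts, of which 15 were at 0 in both libraries. The leading one, the predicted XM_047433475.1, was at 3.91 TPM under DMSO and 4.13 TPM under CCA-1.1. XM_047433476.1 was at 0.90 TPM and 2.92 TPM, a difference of 1.04, and XM_047433474.1 at 1.85 TPM and 2.68 TPM. XM_047433444.1 was at 0.02 TPM and 1.42 TPM, XM_047433452.1 at 0.01 TPM and 1.11 TPM, and XM_024450590.2 at 1.29 TPM and 1.62 TPM. In contrast, the curated NM_001377276.1 was at 3.29 TPM under DMSO and 2.09 TPM under CCA-1.1. All 7 curated PER3 transcripts together were at 4.45 TPM under DMSO and 2.84 TPM under CCA-1.1, a difference of -0.51, so the direction of PER3 depended on whether predicted transcripts were counted. Predicted transcripts held 70.1% of the TPM of PER3 in DMSO and 84.9% in CCA-1.1.

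NR1D2 had 2 abundant transcripts. NM_005126.5 was at 44.5 TPM under DMSO and 57.2 TPM under CCA-1.1, a difference of 0.35, and NM_001145425.2 was at 19.98 TPM and 12.23 TPM, a difference of -0.67. The share of NM_005126.5 in the gene was therefore 66.0% under DMSO and 78.1% under CCA-1.1. The non-coding NR_110524.2 was at 2.33 TPM and 3.26 TPM. Of the 2 transcripts in opposite directions, the higher one was the more abundant in both libraries.

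CLOCK was led in both libraries by NM_004898.4, at 5.71 TPM under DMSO and 5.79 TPM under CCA-1.1, and by XM_005265787.3, at 4.66 TPM and 4.50 TPM. These differed little, and the larger differences lay in less abundant predicted transcripts. XM_047416440.1 was at 0.87 TPM and 3.13 TPM, a difference of 1.14, while XM_011534410.3 was at 2.82 TPM and 1.19 TPM, a difference of -0.80. XM_047416431.1 was at 0.88 TPM and 1.68 TPM, XM_011534411.3 at 0.97 TPM and 1.37 TPM, and XM_047416432.1 at 0.92 TPM and 1.1 TPM.

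CRY1 was at 17.0 TPM under DMSO and 16.4 TPM under CCA-1.1 for NM_004075.5, which led the gene, and at 2.57 TPM and 4.35 TPM for XM_047428319.1. The higher total of CRY1 in the CCA-1.1 library thus lay in the predicted transcript alone, since the curated one differed by -0.05. The table holds 2 of the 17 CRY1 accessions and 37 of the 47 PER3 accessions that RefSeq lists for GRCh38.p14. TEF was at 14.6 TPM and 15.1 TPM for NM_003216.4, a difference of 0.04, while NM_001145398.3 was at 0.95 TPM under DMSO and was listed at 0 in CCA-1.1.

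**Figure D3:**
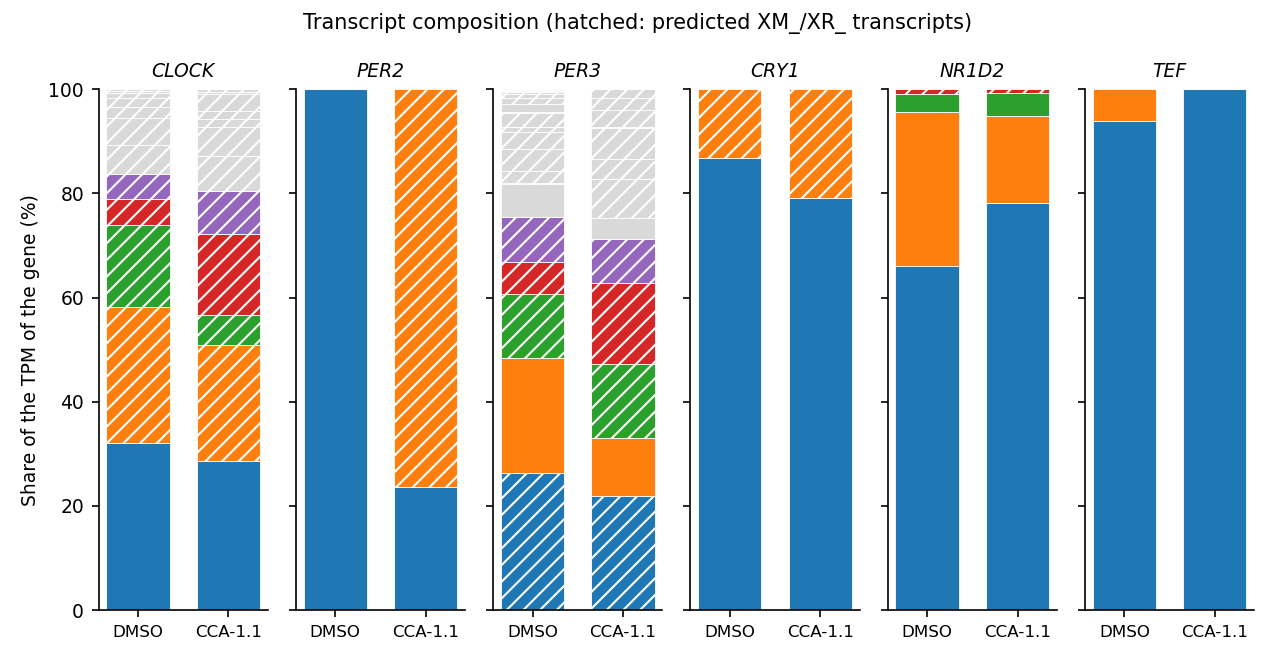
Share of each transcript in the TPM of its gene, in percent, for the 6 clock genes with more than 1 transcript above 0, in the DMSO and CCA-1.1 libraries; colours mark the 5 most abundant transcripts of a gene, grey the remaining ones, and hatching the predicted ones. NM_005126.5 of NR1D2 (lowest block) was at 66.0% and 78.1%, and PER2 was all curated in DMSO and 76.4% predicted in CCA-1.1.

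Some members overlap other genes, and whether the library kit kept the strand is not given in the sources used here. NR1D1 shares 1075 bases with THRA, which was at 38.3 TPM under DMSO and 37.6 TPM under CCA-1.1, a difference of -0.03. DBP shares 376 bases with SPHK2, at 13.7 TPM and 11.8 TPM, a difference of -0.20. NR1D2 shares 1277 bases with NKIRAS1, at 29.4 TPM and 31.2 TPM, a difference of 0.08, and CLOCK shares 25495 bases with TMEM165, at 123.9 TPM and 120.9 TPM. These protein-coding neighbours of NR1D1, DBP and NR1D2 thus lay on the same side of 0 as the members and that of CLOCK on the other. Of all protein-coding genes compared, 53.8% were higher and 46.0% were lower. LOC124900704, a long non-coding RNA gene, also overlaps CLOCK, by 1045 bases. It was at 0.06 TPM and 0.61 TPM, a difference of 0.60, on the same side as CLOCK. Other overlapping genes below 1 TPM are not listed. The part of shared reads in these differences was not tested.

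Of 57 further genes of the pathway, taken from lists by role, 52 had a mean of at least 1 TPM. None of these differed by 2-fold, while 2 were higher and 2 were lower past the 0.32 limit, against 6.84% and 4.53% of all genes compared. Their median difference was 0.03. Neither of the activator lists had a gene past the 0.32 limit, with 3 partners and paralogs of CLOCK and 1 ROR gene, RORA, compared.

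Among 5 further repressors and relatives compared, BHLHE40 was the one past the 0.32 limit. It was higher, as were 6.84% of all genes compared past that limit. BHLHE40 (DEC1), which competes with CLOCK and BMAL1 for E-boxes, was at 182.9 TPM under DMSO and 242.3 TPM under CCA-1.1, a difference of 0.40. Its paralog BHLHE41 was at 42.6 TPM and 42.8 TPM. CIART, a repressor of CLOCK and BMAL1, was at 26.5 TPM and 27.1 TPM, and TIMELESS, which acts mainly at replication forks in mammals, was at 9.23 TPM and 8.51 TPM.

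Of all genes compared, 6.84% were higher and 4.53% were lower past the 0.32 limit. The enzymes that set how long PER and CRY proteins last showed no gene past it among 12 compared. Their differences ran from -0.22 for PPP1CA, a catalytic subunit of protein phosphatase 1, to 0.18 for CSNK1E, the kinase casein kinase 1ε that marks PER proteins for degradation. CSNK1E was at 133.4 TPM under DMSO and 151.5 TPM under CCA-1.1, and its relative CSNK1D at 79.8 TPM and 82.6 TPM. BTRC, the ligase subunit that targets PER proteins, was at 6.72 TPM and 7.60 TPM. The 12 corepressors and coactivators, among them NCOR1 and HDAC3, through which REV-ERB proteins repress, ran from -0.11 for SIRT6 to 0.19 for SFPQ.

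Of 10 output genes compared, 1 was lower past the 0.32 limit and none was higher, against 4.53% and 6.84% of all genes compared. KLF10, a zinc finger repressor under clock control, was at 35.9 TPM under DMSO and 23.4 TPM under CCA-1.1, a difference of -0.60. NAMPT, the enzyme that makes the NAD+ precursor, was at 262.2 TPM and 224.0 TPM, a difference of -0.23, and WEE1, a kinase that holds back mitosis, at 14.6 TPM and 14.9 TPM. These genes also answer to many signals other than the clock.

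Glucocorticoid and cAMP signals reset the clock through PER1. Of 9 such genes compared, 3 were higher and 5 were lower in the CCA-1.1 library, against 53.8% and 46.0% of all genes compared. Past the 0.32 limit 1 was higher and 1 was lower, against 6.84% and 4.53%. CREB1, a transcription factor of the cAMP response, was at 17.0 TPM under DMSO and 21.5 TPM under CCA-1.1. Its difference of 0.3271 was just past the limit of 0.3219. ERRFI1, an inhibitor of EGFR that glucocorticoids induce, was lower, at 150.7 TPM and 110.6 TPM, a difference of -0.44. TSC22D3, a glucocorticoid target, was at 84.4 TPM and 93.1 TPM, and the glucocorticoid receptor NR3C1 at 51.0 TPM and 49.9 TPM. SGK1, DUSP1 and SIK1 of the same list were lower, with differences of -0.25, -0.15 and -0.19. FKBP5 was at 1.62 TPM in both libraries and ZBTB16, a further glucocorticoid target, was below 0.1 TPM.

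**Figure D4:**
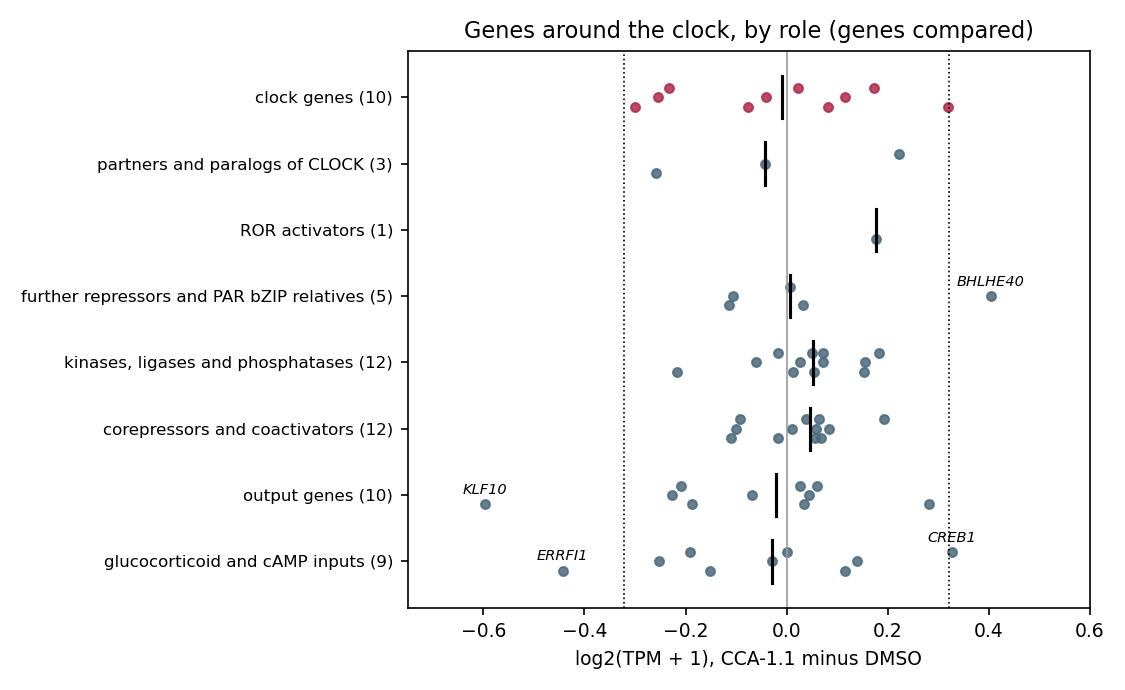
Differences in log2(TPM + 1), CCA-1.1 minus DMSO, for the 10 clock genes and for the genes of the pathway by role; each point is a gene with a mean of at least 1 TPM, black bars are list medians, dotted lines mark a difference of 0.32 in either direction, and the number compared stands in brackets. BHLHE40 and CREB1 lie past the upper line, and KLF10 and ERRFI1 past the lower one.

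When the label of the cells was checked against markers, mesenchymal genes that mark cultured glioblastoma cells were abundant, with VIM at 3217 TPM under DMSO and 3106 TPM under CCA-1.1, while the astrocyte markers GFAP, S100B and AQP4 were each below 1 TPM and S100B was listed at 0 in both libraries. The glial stem markers were higher than these, with OLIG2 at 5.64 TPM and 7.03 TPM and SOX2 at 1.87 TPM and 1.45 TPM. All 5 mesenchymal markers were lower in the CCA-1.1 library, 2 of them (CD44 and TNC) past the 0.32 limit. The sum of the 5 was 20174 TPM and 17160 TPM. Of all protein-coding genes compared, 46.0% were lower and 4.53% were lower past that limit. Of 8 markers of leukocytes, endothelium, epithelium, neurons and oligodendrocytes, 3 had a mean of at least 1 TPM. These were endothelial PECAM1 at 3.41 TPM and 2.71 TPM, neuronal RBFOX3 at 1.83 TPM and 2.45 TPM, and MBP of oligodendrocytes at 1.22 TPM and 1.95 TPM. PECAM1 was thus above SOX2 in both libraries. MBP was higher past the 0.32 limit, as were 6.84% of all genes compared. The sum of all 8 was 6.90 TPM and 7.59 TPM. The part of these marker differences, each from 1 library per treatment, in the clock gene differences was not tested.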

How the data were processed

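Total RNA of U87 cells after 72 h with DMSO or CCA-1.1 (1 library each) was enriched for mRNA and sequenced on an Illumina instrument. The authors checked reads with FastQC 0.11.9 and MultiQC 1.1 (submitters' processing notes) and quantified transcripts by pseudo-alignment with Kallisto against human GRCh38.p14. The deposited values are TPM, rounded to 2 decimals, which keep no read depth, so neither a count test nor an interval for counting error could be given. Kallisto divides reads shared by transcripts of a gene by estimation.

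Of 177816 transcripts, 169966 were matched to 41582 RefSeq symbols with versions ignored, and TPM were summed per gene. Differences are log2(TPM + 1), CCA-1.1 minus DMSO, over protein-coding genes whose mean reached 1 TPM. Limits of 2-fold and of 0.32 were used. Alternatives were pseudocounts of 0.1 and 0.01 TPM or none, other minimum means, median-ratio scaling, curated transcripts and versioned matching. The members and lists were chosen with earlier results of these data known. All members were named, with their transcripts of at least 1 TPM in either library, and genes of lists by role as examples. Of the lists, FBXL21 was matched as FBXL21P. Some genes of the lists are not reported here and were left out of their counts. The calculation of differences and the 2-fold limit were tested on simulated data with planted changes larger than that limit. Symbol matching, summing of transcripts and the 0.32 limit were not part of that test. Python 3.11.15, numpy 2.4.6, pandas 2.3.3 and matplotlib 3.10.9 were used.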

Additional observations from a re-analysis of the deposited data

How the results depend on the processing

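The median difference of the clock genes, -0.0097 as reported, ran over the 8 alternatives from -0.14 with curated transcripts only to 0.02, and so above 0, with a minimum mean of 10 TPM, which leaves out PER2. The number of members past the 0.32 limit, 0 as reported, was 1 (PER3) with a pseudocount of 0.1 TPM, of 0.01 TPM or without one, the last chosen after seeing the data. With curated transcripts only it was 2 (PER2 and PER3), and 1 member, PER2, passed 2-fold. The shares of all genes past these limits were not computed for the alternatives. Of 60 recomputed differences of single members, 58 moved by less than 0.18, the half-width of the central 68% of all genes. These include all values with versioned matching, which equalled the reported ones. PER2 and PER3 moved by more than 0.18, both with curated transcripts only, which leave out the predicted ones. PER1, CRY2, NR1D1, DBP and TEF have no predicted transcripts in the table, so they could not move with curated transcripts only. In that same setting 2 members changed sign. These were PER3 at -0.51 (0.32 as reported) and CRY1 at -0.05 (0.08 as reported), while PER2 there was -1.04 (-0.08 as reported) and CLOCK 0.02 (0.17 as reported). Leaving out a library was not possible. No paired analysis was possible because each treatment had 1 library. Read counts are lacking, so the precision of these values is not known.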

Other observations

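MIR6883, a microRNA hairpin gene of 78 bases that lies within PER1 (chromosome 17 from 8144994 to 8145071 of GRCh38.p14), was listed at 0 under DMSO and stood at 20.2 TPM in the CCA-1.1 library, while PER1 itself was at 40.8 TPM and 41.4 TPM. It is not part of the PER1 sum, and it was looked at because it lies in the gene. TPM is scaled to length, so on 78 bases such a level can rest on few reads, and the read count is not known. Whether reads of PER1 RNA were assigned to MIR6883 was not tested.

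The protein-coding genes on both sides of DBP were also lower in the CCA-1.1 library, as were 46.0% of all protein-coding genes compared. SPHK2 was at 13.7 TPM under DMSO and 11.8 TPM under CCA-1.1, and CA11, which starts past the other end of DBP, was at 11.7 TPM and 10.3 TPM, a difference of -0.17, beside -0.26 for DBP. This was noticed after the values had been seen.

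Of 7 pairs of paralogs of the clock, some of which share a gene, 5 had 1 gene higher and the other lower under CCA-1.1, and 2 had both on the same side. The former were CRY1 and CRY2, NR1D2 and NR1D1, BMAL1 and BMAL2, PER3 and PER2, and CLOCK and NPAS2. The latter were DBP and TEF, both lower, and PER1 and PER3, both higher. Of all protein-coding genes compared, 53.8% were higher and 46.0% were lower, so 2 genes taken at random often lie on opposite sides. The BMAL1 level was 0.52 of the BMAL2 level in DMSO and 0.75 in CCA-1.1. The sums of the pairs were 37.9 TPM and 35.5 TPM for the CRY genes and 38.2 TPM and 36.2 TPM for the BMAL genes. With curated transcripts only, CRY1 and PER3 were lower, at -0.05 and -0.51. CRY1 and CRY2 then lay on the same side, as did PER3 and PER2, while PER1 and PER3 lay on opposite sides. BMAL1, BMAL2 and NPAS2 were not recomputed in that setting, so their pairs were not checked in it.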
